A study of Oryza sativa Japonica Group with 22 samples.

Results

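In milkripe rice seeds, 48 genes set the untransformed parent Taipei apart from every library of 5 transgenic lines at once. They were selected on the measured values: of 22113 genes with a mean of at least 1 CPM over 22 libraries (CPM, a read count divided by the size of its library after scaling by the trimmed mean of M values, TMM), out of 38866 genes counted, a gene was taken when all 18 transgenic libraries lay above, or all lay below, every one of the 4 Taipei libraries and the medians of the 18 and of the 4 were at least 1.5-fold apart. Of the 48 members, 27 were higher and 21 were lower in the transgenic lines. Genes tabulated by the study, and genes for which all libraries with the sunflower albumin lay beyond all others, were to be left out, and 0 genes were removed for either reason. Because the members were chosen by this contrast, every value of Taipei against the transgenic lines given here is a description and carries no test.

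Taipei is the japonica cultivar Taipei 309. SSA seeds expressed HaSSA, a methionine-rich 2S albumin of sunflower held in the endoplasmic reticulum by a KDEL signal, from an endosperm promoter of a wheat high-molecular-weight glutenin, and the line came from particle bombardment. CGS seeds expressed AtD-CGS, a feedback-insensitive form of Arabidopsis cystathionine gamma-synthase, the entry enzyme of methionine synthesis, sent to plastids. SAT seeds expressed EcSAT, the serine acetyltransferase of Escherichia coli, which makes the precursor of cysteine, also sent to plastids. AtD-CGS and EcSAT were driven by a maize ubiquitin promoter active in many tissues, and both lines came from Agrobacterium. CGSxSSA and SATxSSA were crosses of each enzyme line with SSA as the pollen parent, carried to the F5 generation by single seed descent, with 2 segregant lines of each cross combined under its name, so each transgene stands for 1 transformation event and the double lines share the events of their parents. All seeds were taken 10 days after flowering, each library from a panicle of an individual plant, with 4 libraries of Taipei, 3 of SSA, 5 of CGS, 3 of SAT, 4 of CGSxSSA and 3 of SATxSSA.

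As background, a rice seed at the milkripe stage is mostly endosperm that is filling with starch and storage protein, and the sulfur of that protein sits in the amino acids cysteine and methionine. A transgenic line differs from its parent in the inserted gene and also in its history: it has passed through callus culture and regeneration, and it has been propagated by selfing apart from the parent. Plants regenerated from culture are known in rice to carry heritable sequence, transposon and DNA methylation changes that have no link to the inserted gene. Every transgenic line differs from Taipei in both respects, which this design cannot tell apart.

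The members are known in the files only by their identifiers, and the gene name table at hand matched 0 of the 48, so no gene name or role is given. They are called H1 to H27 (higher in the transgenic lines) and L1 to L21 (lower), numbered from the largest to the smallest ratio of medians. The pair on each side with the largest ratio among members with a mean of at least 5 CPM are named: H4 is Os03g0299700, H8 is Os03g0371000, L1 is Os11g0134600 and L2 is Os04g0587100.

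Taipei libraries held 33878151 to 35696144 gene reads and transgenic libraries 29642343 to 41585957. In none of the gene reads, the TMM factor or the shares of unmapped, multiply mapped, ambiguous and opposite-strand reads, and of reads assigned to no gene on the counted strand, did the Taipei libraries lie apart from the transgenic ones. The seed tissue was checked with lists of storage-protein and starch genes (endosperm, 6 genes), embryo and aleurone genes (3) and photosynthesis genes of green tissue (5), and no listed gene was at 0 in any library. Endosperm genes summed to 60287 to 79395 CPM in Taipei and 19383 to 81849 CPM in transgenic libraries, and were lower in each line with HaSSA (19383 to 30740 in SSA, 32293 to 39665 in CGSxSSA and 28950 to 39267 in SATxSSA) than in Taipei. Embryo and aleurone genes summed to 2823 to 4018 CPM in Taipei and 1928 to 3957 CPM in transgenic libraries, and green-tissue genes to 2952 to 3313 and 2686 to 4261 CPM. In such bulk seed RNA, fewer cells of a type and less RNA per cell cannot be told apart. The endosperm sum pools storage-protein and starch genes and single genes were not taken apart, so a few abundant transcripts may set it.

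Without the fold limit, 98 of the 22113 genes (0.443%) had Taipei libraries that did not overlap the 18 transgenic ones, 42 of them higher and 56 lower in the transgenic lines. The fold limit removed more of the lower genes, since the lower differences were smaller: the median fold between medians was 3.13 for higher members with a Taipei median above 0 (up to 64.9) and 1.75 for lower members (up to 6.43). Of the higher members 12 were at least 4-fold apart and 6 under 2-fold, and of the lower members 2 were at least 4-fold apart and 13 under 2-fold. The split of 27 higher and 21 lower members depended on the scaling, becoming 36 and 10 with library size alone, which moved the median log2 ratio over all genes from 0.01 to 0.11. Just inside the fold limit stood H27 (1.54-fold), H26 (1.68), L21 (1.51) and L20 (1.53), and just outside it were a pair of higher genes at 1.47-fold and a pair of lower genes at 1.47-fold. The same limits of level, separation and fold were also applied with another line in the place of Taipei. There, genes tabulated by the study or set apart in all HaSSA libraries were not left out. The counts were 77 genes for SSA, 174 for CGS, 198 for SAT, 5 for CGSxSSA and 100 for SATxSSA. These rest on 3 to 5 libraries a line and were not tested against each other.

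**Figure D1:**
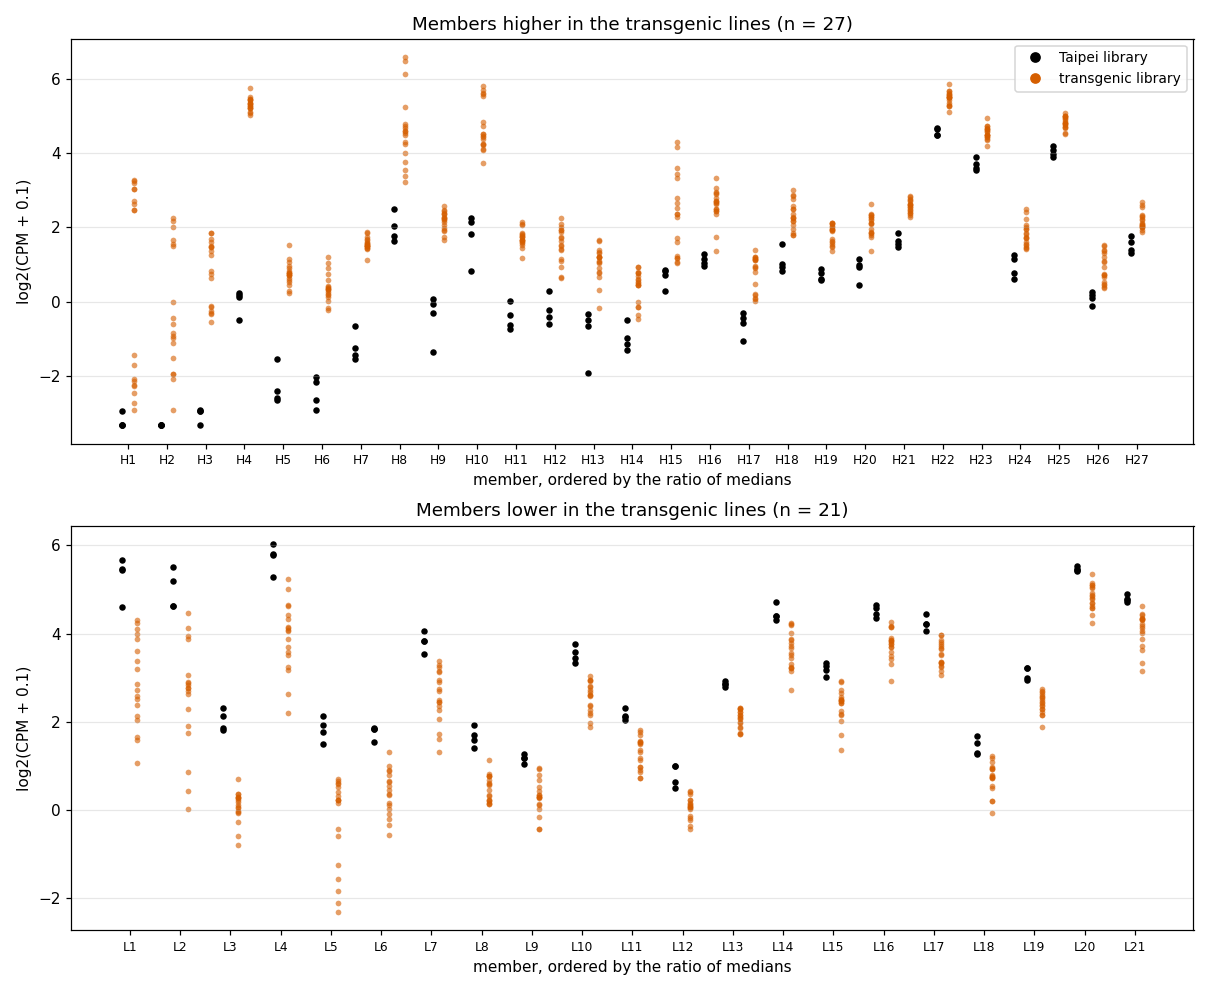
Level of every member in every library, as log2(CPM + 0.1), for the 27 higher members (top) and the 21 lower members (bottom), with black points for the 4 Taipei libraries and orange points for the 18 transgenic ones. H4 has the widest empty interval between the groups, while for most lower members the nearest libraries nearly touch.

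Members were low genes for the most part. Their mean level over the 22 libraries had a median of 4.00 CPM, against 11.96 CPM for all genes of at least 1 CPM, and ranged from 1.05 to 41.3 CPM. In 12 higher members the Taipei median was under 1 CPM. The interval between the nearest Taipei and transgenic library was at least 1.5-fold in 12 members (10 higher and 2 lower) and had a median of 1.18-fold, so the separation of most members was narrow. The opposite strand carried a median of 0.734% of a member's reads, against 0.367% for all genes of at least 1 CPM. In 5 members it carried over 10%: H6 (26.8%), H18 (12.5%), H24 (68.1%), H27 (20.6%) and Os11g0134600 (24.5%).

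Os03g0299700 was near silent in Taipei and at a similar level in all 5 transgenic lines. In Taipei it stood at 1.07, 0.610, 1.03 and 1.00 CPM, or 20 to 34 reads a library. SSA libraries gave 38.8, 39.7 and 34.1 CPM, CGS libraries 33.9, 38.4, 40.5, 32.6 and 45.2 CPM, and SAT libraries 42.95, 43.6 and 39.6 CPM. CGSxSSA libraries gave 43.8, 36.7, 37.0 and 36.9 CPM, and SATxSSA libraries 54.1, 40.4 and 42.96 CPM. The groups were 39.0-fold apart by their medians and 30.4-fold apart at the nearest libraries, the widest interval of the members with a read in each Taipei library. Line means ran from 37.5 ± 3.00 CPM (SSA, SD, n = 3) to 45.8 ± 7.31 CPM (SATxSSA, SD, n = 3), and no difference among the 5 transgenic lines passed the test (edgeR quasi-likelihood test, adjusted p = 0.237). Between the independent events SSA and CGS the log2 difference was -0.03 (95% interval -0.26 to 0.19), and between SAT and CGS it was 0.14 (-0.08 to 0.37).

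H5, H6 and H7 resembled Os03g0299700 at lower levels. H7 had 0.324, 0.244, 0.273 and 0.530 CPM in Taipei and a lowest, median and highest transgenic library of 2.09, 2.81 and 3.60 CPM. Its 5 line means lay within 1.11-fold of each other, the narrowest spread of any member. H5 had 0.0649, 0.244, 0.0607 and 0.0884 CPM in Taipei and 1.09, 1.57 and 2.77 CPM at the same points of the transgenic libraries. H6 had 0.0324, 0.122, 0.0607 and 0.147 CPM in Taipei and 0.753, 1.16 and 2.22 CPM in the transgenic libraries. In 13 higher and 9 lower members the 5 line means fell within 1.5-fold of each other.

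H1, H2 and H3 had almost no reads in Taipei, and among the transgenic lines they were uneven. H1 had 1 read over the 4 Taipei libraries and 2255 over the 18 transgenic ones, a pooled ratio of 480 whose 95% interval ran from 86.0 to 18964, for counting error only. Its reads came almost wholly from CGS (5.39 to 9.64 CPM) and CGSxSSA (6.40 to 9.39 CPM). In SSA it gave 7, 4 and 2 reads, in SAT 4, 3 and 1, and in SATxSSA 9, 4 and 6. SAT replicate 3 and Taipei replicate 2 thus held 1 read each, and only the scaling set them apart. H1 was thus abundant in the lines with AtD-CGS and met the rule by a few reads in the others.

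H2 had 0 reads in Taipei, which allows up to 0.0230 CPM over the 4 libraries (3 reads), and its median over the transgenic libraries was at least 22.2-fold higher. It was highest in SSA, at 2.72, 3.93 and 2.84 CPM, and in SATxSSA, at 4.41, 4.67 and 3.05 CPM. CGS libraries gave 0.136 to 0.561 CPM, SAT libraries 0.0332 to 0.250 CPM and CGSxSSA libraries 0.406 to 0.889 CPM. The lowest of these, SAT replicate 3, held 1 read. In the unstranded count column the mean of H2 over all libraries was 0.0716 CPM in place of 1.19 CPM, and neither H1 nor H2 met the rule there. H3 had 3 reads in Taipei against 1213 in the transgenic libraries, a pooled ratio of 86.0 (95% interval 29.4 to 418, counting error only). It was lowest in CGS, at 0.590 to 0.822 CPM, intermediate in CGSxSSA, at 0.705 to 1.67 CPM, and at 2.28 to 3.52 CPM in SSA, SAT and SATxSSA.

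Os03g0371000 and H10 were higher than Taipei in every line, and their line means were highest in CGS. For Os03g0371000, Taipei had 5.58, 2.99, 3.98 and 3.33 CPM, SSA 9.31, 10.3 and 11.6 CPM, and CGS 26.5, 89.6, 27.2, 95.5 and 24.0 CPM. SAT gave 37.7, 25.5 and 70.2 CPM, CGSxSSA 13.4, 16.0, 23.2 and 18.9 CPM, and SATxSSA 24.2, 19.5 and 22.3 CPM. The CGS replicates 2 and 4 were thus over 3 times the other CGS libraries and carried its mean, while the others lay at 24.0 to 27.2 CPM, near the lowest SAT library, and SAT minus CGS did not pass the test (log2 difference -0.24, 95% interval -1.09 to 0.61, edgeR adjusted p = 0.807). The same CGS replicates led for H15 (19.5 and 18.0 CPM, against 5.06 to 12.1 CPM in the other CGS libraries). For H10 the CGS libraries were even, at 49.1, 51.8, 47.9, 55.7 and 46.0 CPM, above 13.1 to 28.5 CPM in the other lines and 1.68 to 4.69 CPM in Taipei.

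**Figure D2:**
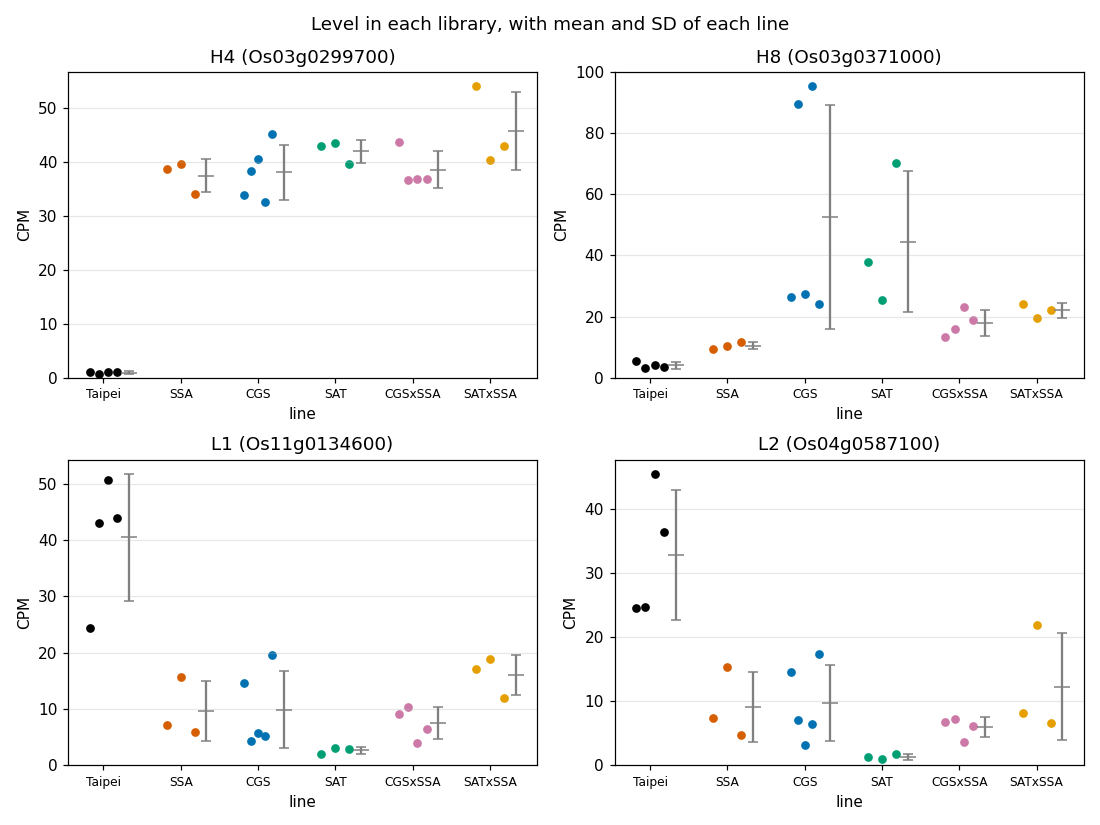
Level in CPM of the 4 members named by identifier in each library of each line, with the mean and SD of the line in grey beside the points. Os03g0299700 sits near 1 CPM in Taipei and between 32.6 and 54.1 CPM elsewhere, whereas Os11g0134600 and Os04g0587100 are lowest in the 3 SAT libraries.

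Among the lower members, the pair with the largest ratios were lowest in SAT. Os11g0134600 had 24.4, 43.1, 50.6 and 44.0 CPM in Taipei and 1.98, 3.05 and 2.92 CPM in SAT. SSA gave 7.09, 15.7 and 5.93 CPM, CGS 14.6, 4.28, 5.66, 5.13 and 19.6 CPM, CGSxSSA 9.12, 10.3, 4.03 and 6.46 CPM, and SATxSSA 17.2, 18.9 and 12.0 CPM. Os04g0587100 had 24.6, 24.7, 45.5 and 36.4 CPM in Taipei, 1.24, 0.916 and 1.73 CPM in SAT, and 3.23 to 21.9 CPM in the other lines. Both thus varied several-fold within and between lines, and the nearest libraries were 1.25-fold and 1.12-fold apart. L4 (38.6 to 65.2 CPM in Taipei, 4.50 to 9.33 CPM in SAT) and L7 (11.5 to 16.6 CPM in Taipei, 2.39 to 3.22 CPM in SAT) were likewise lowest in SAT, then in CGSxSSA, and highest in SATxSSA by the line means. SAT had the lowest line mean in 6 lower members, Os11g0134600, Os04g0587100, L4, L7, L10 and L17, and in each of them SATxSSA had the highest transgenic mean. Within CGS, replicates 1 and 5 gave the higher levels of Os11g0134600, Os04g0587100, L4 and L7, in SSA replicate 2 did, and these libraries were singled out after their values were seen.

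L3 and L5 were the lower members with the widest interval to Taipei. L3 had 3.50, 4.27, 4.89 and 3.39 CPM in Taipei and a lowest, median and highest transgenic library of 0.475, 1.00 and 1.53 CPM, so that every line was reduced to a like level. L5 had 3.70, 3.32, 4.28 and 2.74 CPM in Taipei and 0.102 to 0.325 CPM in CGS, against 0.568 to 1.53 CPM in the other transgenic lines. From L8 to L21 the fold between medians fell from 2.30 to 1.51, and 8 of these 14 had means above 5 CPM.

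**Figure D3:**
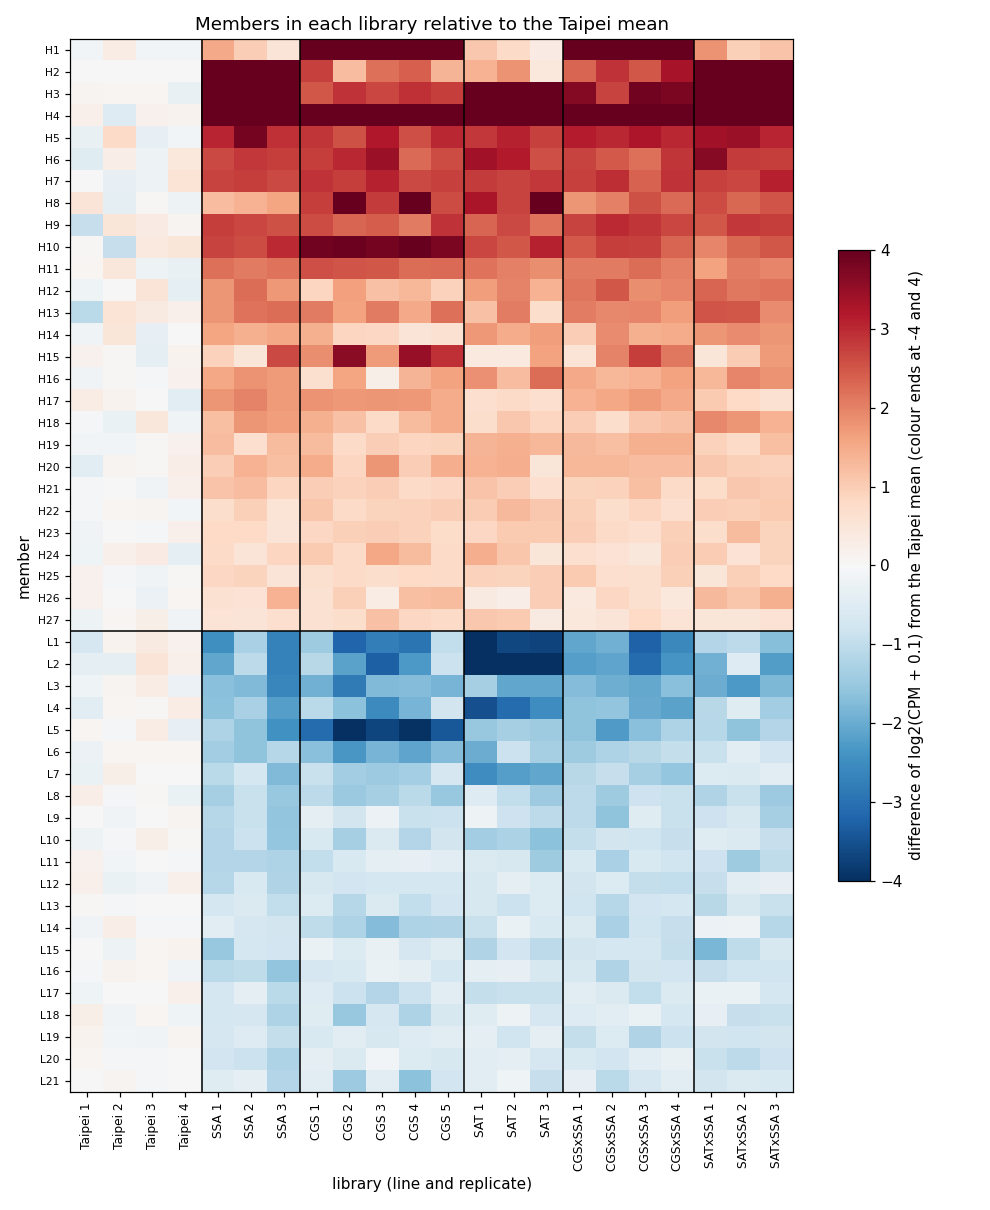
Difference of log2(CPM + 0.1) from the Taipei mean for each of the 48 members (rows, higher members above the line, lower members below it) in each of the 22 libraries (columns, grouped by line). Red is higher and blue lower than the Taipei mean, with the colour scale ending at -4 and 4, and H1, H2, L1, L2 and L5 show the strongest unevenness between transgenic lines.

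Whether the members also differed among the transgenic lines is a question that the rule did not use, except that it bounds the answer: no transgenic library of a member may cross the Taipei range, and genes with all HaSSA libraries beyond all others were left out. Across the 5 lines, 12 of the 48 members (25%) differed at an adjusted p under 0.01 (edgeR quasi-likelihood F test, adjusted over 26821 genes), beside 14.2% of all genes tested. They were H1 (adjusted p = 8.36e-13), H2 (1.86e-07), H3 (1.51e-06), H10 (1.47e-05), L5 (1.97e-05), H17 (8.74e-05), L7 (0.000537), L6 (0.00238), L16 (0.00289), H12 (0.00401), Os03g0371000 (0.00485) and L20 (0.00572). The other 36 members, with Os03g0299700 among them, did not pass, which does not show that their lines were alike. The 14.2% of all genes tested, like the shares that follow, includes genes with a mean under 1 CPM. No member has so low a mean, so the shares are of unlike sets. H1 and H2 reached the mean of 1 CPM only through the lines where they were high, so a difference between lines was partly fixed by that filter, and their values are a description. H3 reached it in large part through SSA, SAT and SATxSSA (line means 2.62, 3.20 and 2.81 CPM, beside 0.730 in CGS and 1.35 in CGSxSSA), and is likewise a description. The same holds for H1, H2 and H3 in the comparisons between lines that follow, where they are included in the counts.

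**Figure D4:**
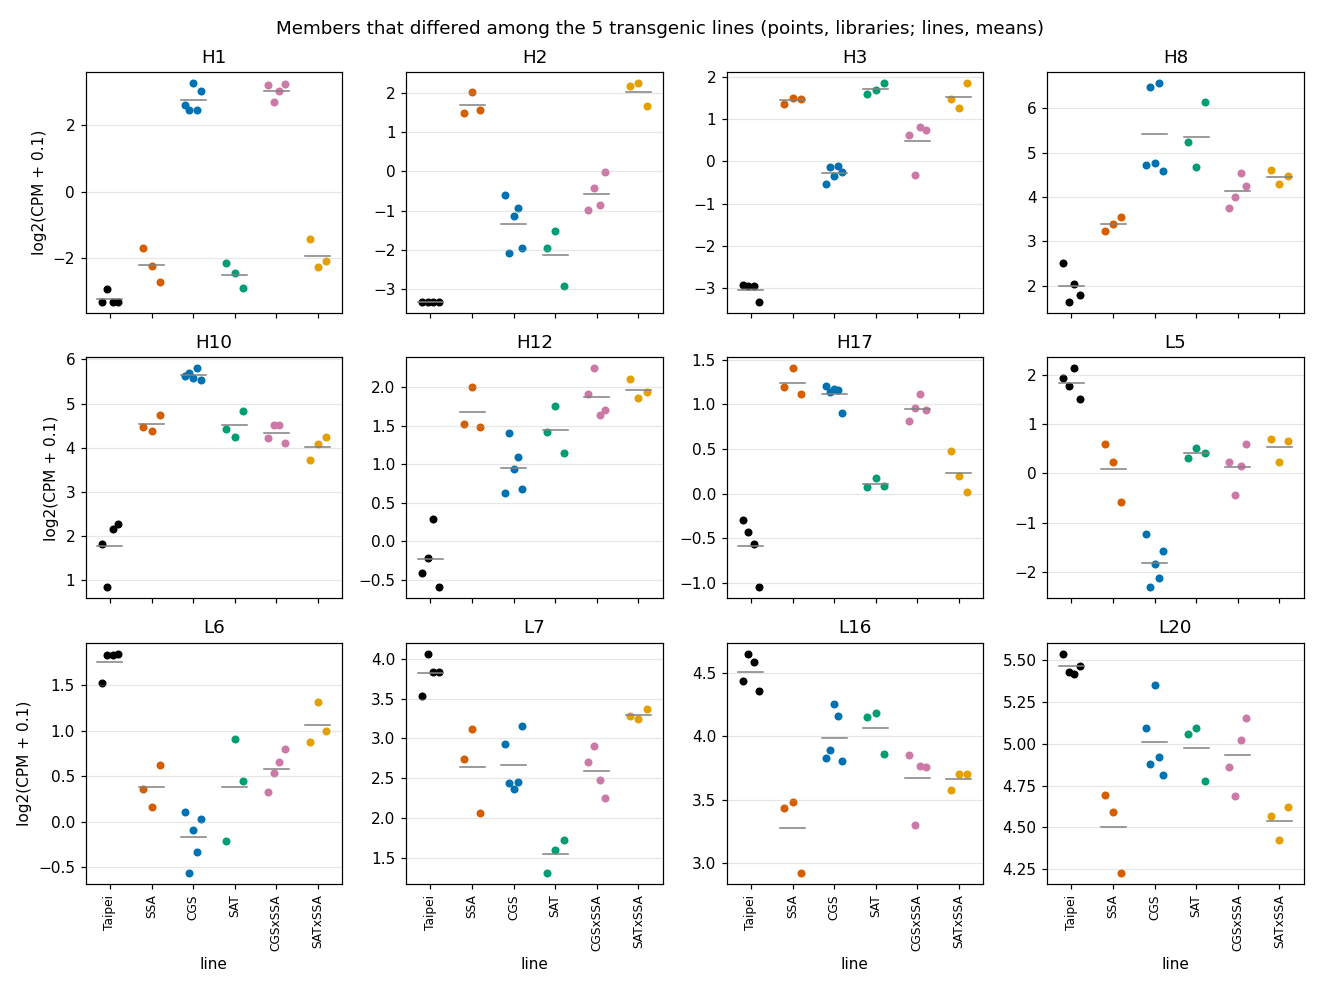
The 12 members that differed among the 5 transgenic lines, as log2(CPM + 0.1) in each library (points) with the mean of each line (grey bar). H1 is high in CGS and CGSxSSA, H2 in SSA and SATxSSA, and L5 is lowest in CGS.

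Between the enzyme lines, SAT minus CGS, 7 members passed the test, beside 3.37% of all genes. H1 was lower in SAT by a log2 difference of -6.34 ± 0.39 (SE), Os04g0587100 by -2.93 ± 0.63, L7 by -1.17 ± 0.23, H10 by -1.13 ± 0.20 and H17 by -1.07 ± 0.18. L5 and H3 were higher in SAT, by 2.62 ± 0.33 and 2.13 ± 0.22 (edgeR adjusted p from 1.15e-09 to 0.00773 for the 7). In SSA minus CGS, 8 members passed, beside 9.59% of all genes: H2 (3.25 ± 0.35), L5 (2.32 ± 0.33) and H3 (1.83 ± 0.22) were higher in SSA, and H1 (-5.81 ± 0.36), Os03g0371000 (-2.34 ± 0.49), H10 (-1.12 ± 0.20), L16 (-0.71 ± 0.14) and L20 (-0.52 ± 0.13) were lower. In SSA minus SAT, 5 members passed, beside 6.07% of all genes: H2 (4.33 ± 0.47), Os04g0587100 (2.82 ± 0.67), H17 (1.19 ± 0.19) and L7 (1.16 ± 0.25) were higher in SSA and L16 (-0.79 ± 0.16) was lower. In SSA, where L16 and L20 had their lowest line means, the endosperm genes summed to 19383 to 30740 CPM, beside 51642 to 70263 CPM in CGS and 56910 to 81849 CPM in SAT, and their part in these results was not tested.

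The double lines carried the events of both parents, so their members were set beside each parent. CGSxSSA differed from SSA in 2 members, H1 (6.06 ± 0.36) and H2 (-2.39 ± 0.35), beside 0.112% of all genes (no member but H1 and H2 passed, so this count is no result about the members), and from CGS in 3, L5 (2.36 ± 0.32), H12 (0.96 ± 0.20) and H10 (-1.31 ± 0.18), beside 3.87% of all genes. SATxSSA differed from SSA in 1 member, H17 (-1.06 ± 0.19), beside 0.619%, and from SAT in 5, all higher in SATxSSA: H2 (4.69 ± 0.47), Os04g0587100 (3.25 ± 0.67), Os11g0134600 (2.59 ± 0.57), L4 (2.04 ± 0.40) and L7 (1.77 ± 0.25), beside 4.25%. Sums of embryo and aleurone genes did not overlap between SAT and SATxSSA (3685 to 3807 and 1928 to 2592 CPM). Endosperm sums did not overlap either (56910 to 81849 and 28950 to 39267 CPM), whereas green-tissue sums did (2854 to 2941 and 2686 to 3595 CPM). The part of these sums in the 5 differences was not tested. Between the double lines, SATxSSA minus CGSxSSA, 2 members passed, H1 (-5.60 ± 0.34) and H2 (2.75 ± 0.35), beside 0.91% of all genes (no member but H1 and H2 passed, so this count is no result about the members). All of these are log2 differences with their SE from the edgeR fit at an adjusted p under 0.01. Leaving out 1 library changed some of these counts: the 5 of SATxSSA against SAT became 2 without SAT replicate 1, SAT replicate 2, SATxSSA replicate 1 or SATxSSA replicate 2 and 3 without SAT replicate 3, the single call of SATxSSA against SSA was lost without SSA replicate 1 or 2 or SATxSSA replicate 2 or 3, and the 2 of CGSxSSA against SSA became 1 without SSA replicate 2 or 3 or CGSxSSA replicate 1, 2 or 3. Among the single lines, the 7 of SAT against CGS became 4 without SAT replicate 1 or 2, the 8 of SSA against CGS became 5 without SSA replicate 3, and the 5 of SSA against SAT became 2 without SAT replicate 1 or 2 and 3 without SSA replicate 1 or 3.

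Where the parents themselves differed, the double line took after 1 parent in some members and lay between them in others. In CGSxSSA the parents differed in 8 members, and the double line was between them in 5, with 3 nearer to SSA (Os03g0371000, H10 and L5) and 5 nearer to CGS (H1, H2, H3, L16 and L20). H1 was at 0.124 CPM in SSA, 6.92 in CGS and 8.26 in CGSxSSA (line means), and L5 at 1.02, 0.195 and 1.04 CPM. In SATxSSA the parents differed in 5 members, and the double line was between them in 2, with 4 nearer to SSA (H2, Os04g0587100, L7 and L16) and 1 nearer to SAT (H17). H3 and L16 were near ties by the log2 differences of the double line from SSA and from the enzyme line. In CGSxSSA these were -0.95 and 0.88 for H3 and 0.40 and -0.32 for L16, and in SATxSSA 0.37 and -0.41 for L16. H2 was at 3.16 CPM in SSA, 0.147 in SAT and 4.05 in SATxSSA, and H17 at 2.27, 0.982 and 1.08 CPM. Of the members with no reads or almost none in Taipei, H1 thus followed CGS into its cross, and H2 stayed high in the cross with SAT and was near the low CGS level in the cross with CGS.

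**Figure D5:**
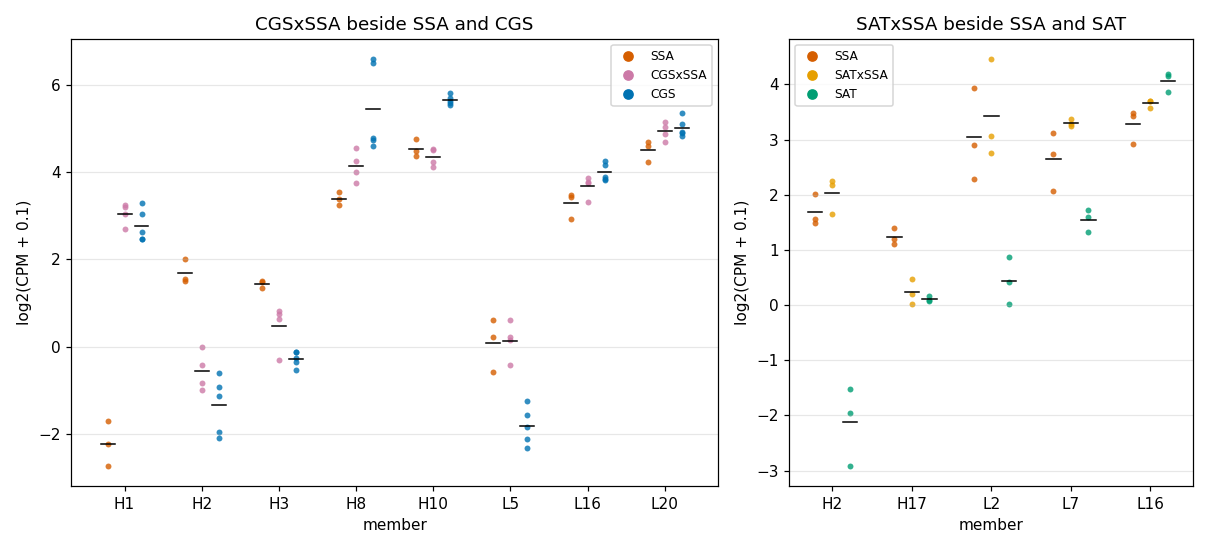
Members whose parents differed, as log2(CPM + 0.1) in each library of SSA, the double line and the enzyme line (points, with the line mean as a black bar), for CGSxSSA (left, 8 members) and SATxSSA (right, 5 members). CGSxSSA lies with CGS for H1 and with SSA for L5 and H10, and SATxSSA lies with SSA for H2, L2 and L7 and with SAT for H17.

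By the chromosome number carried in the identifiers of the IRGSP-1.0 annotation, the members were uneven over the genome. Chromosome 7 held 12 of the 48 (25%; 7 higher and 5 lower), beside 7.53% of the genes of at least 1 CPM, and 16 of the 98 genes apart at any fold (16.3%). The other chromosomes held 1 to 5 members each. This share is a description, with no test, since the members were chosen on their values and neighbouring genes are not independent. In identifier order among genes of at least 1 CPM, 2 pairs of members were immediate neighbours: L20 and H3 on chromosome 7, which went in opposite directions (the level of L20 was 42.7 to 46.4 CPM in Taipei and 18.6 to 40.7 CPM in the transgenic lines), and H27 and H24 on chromosome 11, both higher. H24 and H27 were the pair with 68.1% and 20.6% of reads on the opposite strand, and reads of overlapping transcripts were not resolved there. H18 and L3 on chromosome 7 had 6 genes between them, L7 and H15 on chromosome 4 had 12, and H25 and H22 on chromosome 2, both higher, had 16.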

How the data were processed

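The deposited files hold raw read counts for 38866 genes, with 3 count columns a library (unstranded and each strand) after 4 totals of reads not assigned to a gene. The authors sequenced rRNA-depleted, strand-specific single-end libraries and mapped them with STAR 2.7.1a to IRGSP-1.0, counting uniquely mapped reads that overlap 1 gene, so reads of near-identical gene copies are under-counted. The anti-strand column was used, without the totals. Transgene reads were not used here.

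CPM were scaled by TMM in edgeR 4.0.16 (R 4.3.3). The members were defined as in the opening of the report. The members and lists were chosen with earlier results of these data known. The 5 transgenic lines were compared in 9 tests by edgeR's quasi-likelihood method over all 22 libraries, with 26821 genes passing the default expression filter, Benjamini-Hochberg adjustment over them and a threshold of 0.01. The script was tested on simulated data. DESeq2 1.42.0 and other scalings, filters, thresholds and sets of libraries were alternatives. Libraries of a line are separate plants, and 0 libraries were identical to another (highest correlation of log2 CPM within a line 0.993). Intervals of read counts cover counting error only. The 4 named members were taken by a rule: the largest ratio on each side with a mean of at least 5 CPM and a Taipei median above 0. Grouping members by gene description, which had been planned, was not run, because the name table matched none of the identifiers; the marker lists rest on identifiers alone.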

Additional observations from a re-analysis of the deposited data

Results flagged for a closer look

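The 15 members examined closely gave 45 groups of 4 or 5 libraries, and in 6 of them 1 library lay far from the rest of its line by Dixon's criterion. Chance alone meets this criterion in about 1 in 20 groups of normally distributed values. H2 in Taipei, at 0 in every library, could not be checked. For Os03g0299700, Taipei replicate 2 was at 0.610 CPM beside 1.00 to 1.07 CPM in the other Taipei libraries, and CGSxSSA replicate 1 was at 43.8 CPM beside 36.7 to 37.0 CPM. For H1, Taipei replicate 2 was at 0.0305 CPM, 1 read, beside 0 in the others, and for H3, Taipei replicate 4 was at 0 beside 0.0304 to 0.0324 CPM, which is 1 read each. With only 0 or 1 read a library, 1 library unlike the rest meets the criterion by construction, so these flags show no outlier. For H17, CGS replicate 5 was at 1.76 CPM beside 2.10 to 2.21 CPM, and for L6, Taipei replicate 1 was at 2.79 CPM beside 3.46 to 3.51 CPM.

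The 5 transgenic lines, which hold 3 transformation events between them, differed from each other in 12 members by the edgeR quasi-likelihood test among the lines (adjusted over 26821 genes): H1 with an adjusted p of 8.36e-13, H2 with 1.86e-07, H3 with 1.51e-06, H10 with 1.47e-05, L5 with 1.97e-05, H17 with 8.74e-05, L7 with 0.000537, L6 with 0.00238, L16 with 0.00289, H12 with 0.00401, Os03g0371000 with 0.00485 and L20 with 0.00572. In the same test 14.2% of all genes tested differed, beside 25% of the members. H1 and H2 passed the minimum mean only through the lines where they were high, and H3 in large part so, which partly fixed their difference.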

How the results depend on the processing

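Log2 ratios of medians were recomputed under the alternatives for the 46 members with a finite ratio, and without 1 library only for members named by identifier. In the latter the direction was already fixed by the rule, which set all transgenic libraries beyond all Taipei libraries. Of the 224 ratios, 0 changed direction, which is therefore in part set by the selection. Of these ratios 219 moved by less than 1 SD between replicates. The 5 that moved more came with unstranded counts (H3 5.15, Os03g0371000 1.93, H12 2.35, H24 0.27 and L13 -1.01). With unstranded counts H1, H2, H23, H24, H27, L10, L13, L15 and L21 were no longer members. H2 fell to a mean of 0.0716 CPM, and L10 and L15 had 0 CPM and no ratio. The mean of H23 fell from 21.5 to 7.29 CPM, of L13 from 4.67 to 0.558 CPM and of L21 from 19.2 to 4.15 CPM. H25 stayed a member, with a mean of 2.76 CPM in place of 26.3 CPM. With RLE scaling the same 48 genes were members. Library size alone gave 46 members, 36 higher and 10 lower, and 32 of the 48 were members under all 3 scalings (27 also with unstranded counts). A minimum of 5 CPM gave 21 members (9 higher, 12 lower), a 2-fold limit 29 (8 lower) no fold limit 98 (42 higher, 56 lower) and no minimum CPM 64. Leaving out 1 library at a time gave 47 to 71 members, 26 to 34 higher and 20 to 38 lower. The most lower members (38) came without Taipei replicate 1. Each library left out takes a condition from the rule, so larger sets follow in part from the rule itself. Why Taipei replicate 1 gave the most lower members was not tested.

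DESeq2 called more members, and more of all genes (6462 among the 5 lines in place of 3803): 22 among the 5 lines, 11 for SAT minus CGS (beside 1446 of all genes), 10 for SSA minus SAT (2851), 6 for CGSxSSA minus CGS (1723), 4 for SATxSSA minus CGSxSSA (655), 10 for SSA minus CGS (3652) and 7 for SATxSSA minus SAT (2401), and as many as edgeR for the others. At a threshold of 0.05 the counts of members were 22, 12, 11, 6, 5, 12 and 8 in the same order, with 7682 of all genes among the 5 lines. With library size alone SATxSSA minus SAT gave 9, but 4619 of all genes were called in place of 1140, so the rise is no result about the members. Unstranded counts gave 3 for SSA minus SAT, 1 for CGSxSSA minus SSA, 3 for SATxSSA minus SAT and 1 for SATxSSA minus CGSxSSA. Without 1 library the counts ran from 9 to 15 among the 5 lines, 4 to 8 for SAT minus CGS, 5 to 9 for SSA minus CGS, 2 to 6 for SSA minus SAT, 1 to 2 for CGSxSSA minus SSA, 0 to 1 for SATxSSA minus SSA, 2 to 4 for CGSxSSA minus CGS, 2 to 7 for SATxSSA minus SAT and 2 to 3 for SATxSSA minus CGSxSSA. Where no share of all genes stands beside them, these counts are no result about the members. The causes were not tested.

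The libraries share only replicate numbers: deviations of same-numbered libraries correlated between -0.46 and 0.31 (median 0.02), and 4 of 22 libraries correlated best with their own number. With a replicate block the counts were 10 among the 5 lines and 6, 7, 4, 2, 1, 2, 5 and 2 for the comparisons in the order of the preceding list. They too stand without a share of all genes. Depth limits H1, H2 and H3, whose Taipei levels rest on 0 to 3 reads.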
